A study of Triticum aestivum with 18 samples.

Results

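The genes described here are those whose change in the first 24 h of greenbug infestation depended on the line, resistant or susceptible, of near-isogenic wheat. The comparison used 12 of the 18 arrays of the series, 3 in each of 4 groups. The groups were leaves of the resistant line TXGBE273 at 24 h and at 0 h, and leaves of the susceptible line TXGBE281 at 24 h and at 0 h. Both are near-isogenic lines of bread wheat (Triticum aestivum), and all plants were grown in a greenhouse and sampled at the 3-leaf stage. The 24 h groups carried greenbugs of biotype E, and the 0 h groups are labelled as controls. The other 6 arrays, of both lines at 48 h, took part in the estimate of the spread between arrays and gave a line difference on arrays that the 24 h comparison did not use. No uninfested leaves at 24 h were analysed here, so greenbug feeding, plant age and time of sampling cannot be told apart within a line. Neither the source of the replicates (separate plants or pools) nor the gene that sets the lines apart is given in the labels, so a p-value covers the spread among these arrays only.

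The greenbug (Schizaphis graminum) is an aphid that pushes its stylets into the phloem, takes up sap and injects saliva that leaves susceptible leaves yellow and necrotic around the feeding sites. Near-isogenic lines share most of their genome and differ around the introduced resistance locus, so they give a comparison of resistance on a common background. In grasses, one chemical barrier against aphids is the benzoxazinoids, indole-derived toxins stored as inactive glucosides. A β-glucosidase, in wheat encoded by TaGlu1a among others, cuts off the sugar when tissue is damaged and releases the active compound.

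The measurements were signals of single probe sets, groups of short probes that read 1 transcript, on an Affymetrix wheat array. Of 61290 probe sets in the table, 46256 were tested, and the line by infestation difference was (resistant 24 h minus resistant 0 h) minus (susceptible 24 h minus susceptible 0 h) on a log2 scale with 16 added to each signal. A positive value therefore means a larger rise or a smaller fall in the resistant line, and "called" means a limma adjusted p under 0.05. The added 16 understates changes of dim probe sets, and bread wheat carries 3 related subgenomes, whose copies of a gene may hybridise to the same probes. In bulk leaf tissue, fewer cells of a type and less RNA per cell cannot be told apart. Genes whose only symbol is a LOC number carry no description in the annotation used here and are described by their values alone.

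One array stood apart. Among the 368 called probe sets that rose in the susceptible line with the larger rise there, susceptible 24 h replicate 2 was the lowest of its group in 324 (88.0%), against 33.7% over all tested probe sets, and its signal had a median of 70.7% of the mean of the other 2 arrays. Without it 1304 probe sets were called, among them 700 of the 738 called with it. Without susceptible 24 h replicate 3, the highest array of its group in 295 of the 368, 476 were called. Signals of the bacterial hybridisation controls, on the log2 scale, were 11.41 to 11.80 in resistant 24 h arrays and 12.04 to 12.46 in resistant 0 h arrays, against 11.74 to 11.82 in susceptible 24 h arrays and 12.19 to 12.26 in susceptible 0 h arrays. The 3′ to 5′ signal ratio of GAPDH, a measure of RNA integrity, was 0.143 to 0.343 in resistant 24 h arrays and 0.482 to 0.577 in resistant 0 h arrays, against 0.300 to 0.315 in susceptible 24 h arrays and 0.234 to 0.502 in susceptible 0 h arrays. The same ratio of actin varied more, with 0.273 to 2.07 in resistant 24 h and 1.94 to 7.67 in resistant 0 h arrays. In susceptible arrays it was 0.334 to 0.976 at 24 h and 0.702 to 4.18 at 0 h. That of EF1a ran from 0.103 on resistant 0 h replicate 2 to 20.7 on susceptible 24 h replicate 1. The part of these differences in the results below was not tested. Leaf markers were bright on all 12 arrays: the brightest probe set of PsbP, of photosystem II, lay between 28004 and 80617, and that of rbcL, the Rubisco large subunit, between 48938 and 94880.

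The commonest first-day difference was a rise that was stronger in the susceptible line or called there alone. The line by infestation difference was called for 738 probe sets, 1.6% of those tested, of which 290 (0.627%) were higher in the resistant line's change and 448 (0.969%) were lower. For comparison, the change within a line was called for 14872 probe sets (32.2%) in resistant leaves and 15458 (33.4%) in susceptible leaves. Of the 738, 178 rose in both lines and more in susceptible leaves, and 151 rose in susceptible leaves alone. Over all tested probe sets, 17.6% were called higher and 14.5% lower at 24 h in resistant leaves, and 17.1% higher and 16.3% lower in susceptible leaves. Scaled on the hybridisation controls, 402 were called with 55.2% of them higher, against 39.3% higher as deposited, and that scale moved the median difference of all tested probe sets to 0.21, against 0.06. The values below are relative to the arrays' common deposited level.

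**Figure D1:**
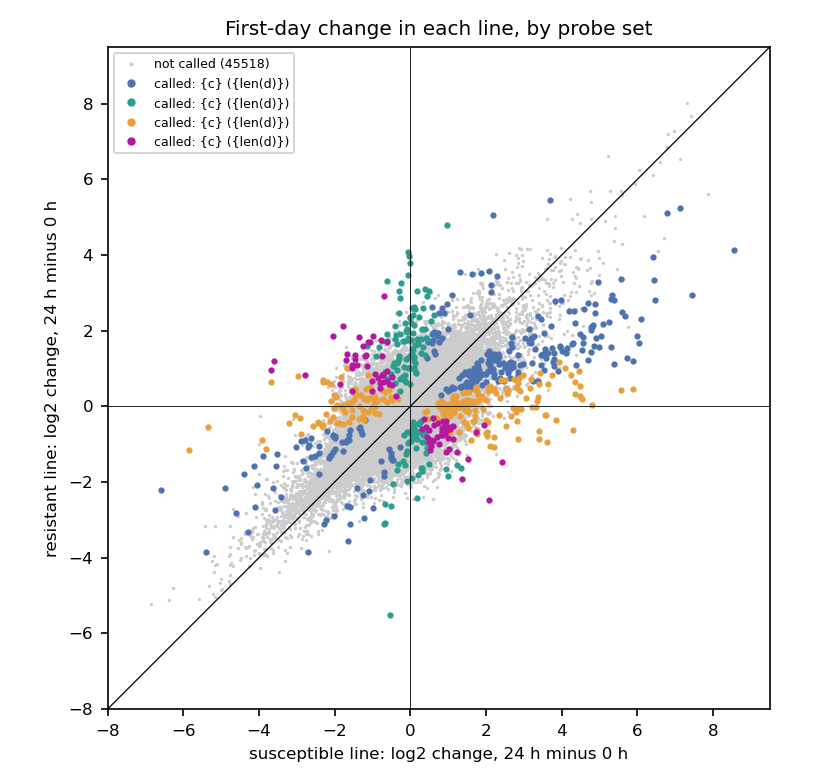
Each point is 1 probe set, with the log2 change (24 h minus 0 h) of the resistant line on the vertical axis and of the susceptible line on the horizontal axis. Grey points are the 45518 tested probe sets that were not called, coloured points the 738 called by which line's own change was called, and the diagonal marks equal change. Blue marks both lines in the same direction, teal the resistant line alone, orange the susceptible line alone and magenta opposite directions. Called points lie off the diagonal, and 405 of them lie below it to the right of the vertical line, 368 of these with a called rise in susceptible leaves.

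Each line's own change split the 738 into 4 kinds. In 282 (38.2%) both lines changed in the same direction by different amounts, in 230 (31.2%) the change was called in susceptible leaves alone, in 146 (19.8%) in resistant leaves alone, and in 80 (10.8%) the lines went in opposite directions. Each of these probe sets was chosen by the test of the difference itself. Of the 178 probe sets that rose in both lines and more in susceptible leaves, the median log2 changes were 1.23 in resistant and 2.78 in susceptible leaves. The 151 that rose in susceptible leaves alone had medians of 0.04 in resistant and 1.75 in susceptible leaves. Another 39 fell in resistant and rose in susceptible leaves (medians -0.71 in resistant, 0.86 in susceptible), 55 fell in resistant leaves alone (-0.95 in resistant, 0.13 in susceptible) and 25 fell in both, more in resistant leaves (-2.23 in resistant, -1.10 in susceptible).

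Among the 290 higher probe sets, 91 rose in resistant leaves alone, with median log2 changes of 1.73 in resistant and -0.05 in susceptible leaves, and 29 rose in both, more in resistant leaves (2.47 in resistant, 0.84 in susceptible). In 79 the change was a fall in susceptible leaves alone (0.07 in resistant, -1.55 in susceptible), and 50 fell in both, more in susceptible leaves (-1.20 in resistant, -2.47 in susceptible). The remaining 41 rose in resistant and fell in susceptible leaves (1.07 in resistant, -1.05 in susceptible). These counts move with single arrays: the number that changed in the same direction in both lines was 592 without susceptible 24 h replicate 2, 165 without susceptible 24 h replicate 3, 166 without resistant 24 h replicate 3 and 182 without resistant 24 h replicate 2. The number called in 1 line alone, 376 together, was 603 without susceptible 24 h replicate 2 and 243 without susceptible 24 h replicate 3.

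**Figure D2:**
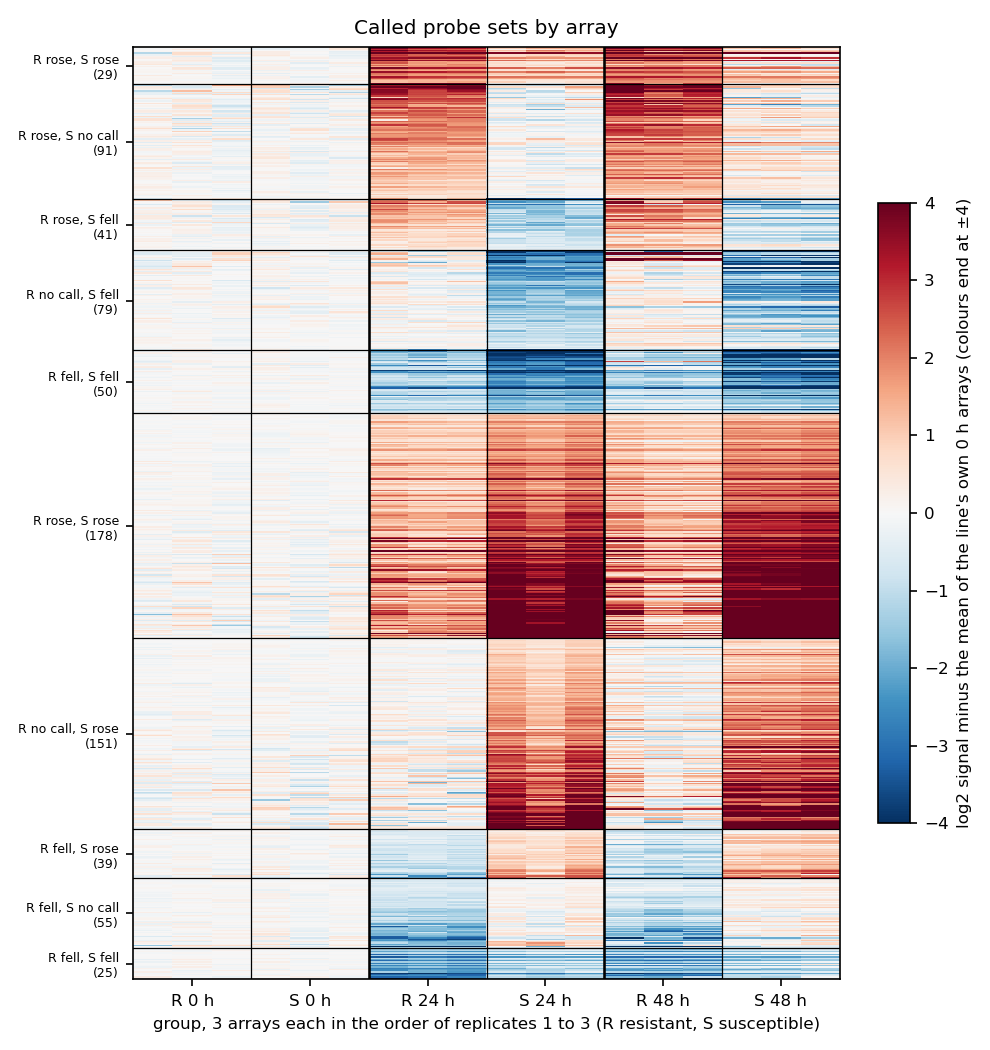
Rows are the 738 called probe sets, grouped by the direction called in the resistant (R) and susceptible (S) line, with the number of probe sets in each group. Columns are the 18 arrays, and colour is the log2 signal minus the mean of the same line's 0 h arrays. The large blocks that rose in susceptible leaves are paler on the middle susceptible 24 h array, replicate 2, than on the other 2, and most blocks look alike at 24 h and 48 h.

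The 738 were chosen by the test of this difference, so its size in them is a description. Its absolute value had a median of 1.58 on the log2 scale (quartiles 1.05 and 2.35), against 0.34 over all tested probe sets, and 1.58 corresponds to a change 2.98-fold larger in one line than in the other. In 245 probe sets the difference was over 2 and in 28 over 4. The weakest call, TaAffx.61466.1.S1_at, had a difference of 0.79 (limma adjusted p = 0.049998), and the strongest probe set outside the calls, Ta.21353.1.S1_a_at, had -1.12 (adjusted p = 0.050345). Called probe sets were brighter, with a median highest group mean of 2829.9 against 254 over all tested. Probe sets with IDs that begin TaAffx made up 26.3% of the calls against 43.4% of those tested, and IDs that end in _x_at, which mark probes shared with other sequences, 22.2% against 12.6%.

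Of the 738 probe sets, 47 had a gene symbol, for 41 genes, 12 with a higher and 29 with a lower change in the resistant line. The other 691 had none and are known by their IDs. Several of the annotated genes with the highest differences lost their signal in susceptible leaves within a day and kept it in resistant leaves. LOC543363 had the largest difference of any annotated gene with 16 or 64 added to the signal, and LOC606359, described below, with 1 added. For LOC543363 the signal was 7464, 3630.0 and 5515 at 24 h and 1449, 2568 and 3200.3 at 0 h in resistant leaves, against 69.7, 101 and 132 at 24 h and 1504, 1168 and 1477 at 0 h in susceptible leaves. The 24 h arrays of the lines did not overlap, and the 0 h arrays did. Its difference was 4.82 ± 0.40 (SE, limma adjusted p = 1.15e-06), from log2 changes of 1.21 in resistant and -3.61 in susceptible leaves.

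LOC543233 was read by a pair of called probe sets. On Ta.21348.1.S1_s_at its signal was 3121, 1372 and 1831 at 24 h and 769, 865 and 2136 at 0 h in resistant leaves, against 45.8, 37.9 and 38.9 at 24 h and 607, 427 and 308 at 0 h in susceptible leaves. The susceptible 24 h arrays were the lowest of all, but the 0 h arrays of the lines did not overlap either, with every resistant array above every susceptible one. The difference was 3.79 ± 0.46 (SE, limma adjusted p = 8.82e-05) here and 4.32 ± 0.63 (SE, limma adjusted p = 0.000612) on Ta.21348.1.S1_x_at. In resistant leaves its changes of 0.81 and 0.64 were not called.

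LOC543234 is the next gene to LOC543233 in the RefSeq annotation (IWGSC CS RefSeq v2.1), the only adjacent pair among the 41 genes, and 10 such pairs stood among the 705 annotated genes tested. Its signal was 843, 549 and 514 at 24 h and 391, 687 and 1392 at 0 h in resistant leaves, against 6.59, 39.5 and 46.1 at 24 h and 455, 353 and 239 at 0 h in susceptible leaves. It fell by 3.05 on the log2 scale in susceptible leaves and was -0.22 in resistant leaves, for a difference of 2.83 ± 0.65 (SE, limma adjusted p = 0.0271). This call was lost in 11 of 24 alternative settings, 7 of them with 1 array left out, with differences of 1.91 to 3.58 throughout.

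TaGlu1a (LOC780595), the benzoxazinoid-releasing β-glucosidase gene, was 1 of 2 called genes with a name other than a LOC number. Its signal was 3836, 2591 and 3015 at 24 h and 1194, 2284 and 1914 at 0 h in resistant leaves, against 120.0, 107 and 166 at 24 h and 824, 981 and 1151 at 0 h in susceptible leaves. Resistant 24 h arrays were the highest and susceptible 24 h arrays the lowest, and none of the 4 groups overlapped: resistant 0 h arrays already stood above susceptible 0 h arrays. It rose by 0.83 in resistant leaves (limma adjusted p = 0.0288) and fell by 2.77 in susceptible leaves (adjusted p = 1.41e-07), and the difference was 3.61 ± 0.40 (SE, limma adjusted p = 3.18e-05). Another probe set of the same ID cluster, Ta.4601.1.S1_s_at, which has no gene symbol, had a difference of -0.19 (adjusted p = 0.606).

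Probe sets without a gene also lost signal in susceptible leaves in the same way. Ta.23763.1.S1_at was among the brightest: its signal was 28707, 18655 and 23790.4 at 24 h and 27331, 43073 and 33766 at 0 h in resistant leaves, against 453, 550.1 and 1334 at 24 h and 31529, 27038 and 28295 at 0 h in susceptible leaves. The resistant arrays at 24 h and 0 h overlapped, and the susceptible 24 h arrays lay far below every other. Its difference was 4.80 ± 0.42 (SE, limma adjusted p = 2.08e-06). Ta.30827.1.A1_x_at had a difference of 4.64 ± 0.52 (SE, limma adjusted p = 3.18e-05), from changes of 0.96 in resistant and -3.68 in susceptible leaves. TaAffx.1074.1.S1_at fell in both lines, by 2.20 in resistant and by 6.58 in susceptible leaves, with a difference of 4.38 ± 0.34 (SE, limma adjusted p = 5.82e-07). TaAffx.90316.1.S1_at changed by -1.15 in resistant and -5.85 in susceptible leaves, the resistant change not called, with a difference of 4.70 ± 0.82 (SE, limma adjusted p = 0.00301).

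Other genes rose in resistant leaves and did not pass the test in susceptible leaves. LOC606359 was near the floor of the array everywhere except in infested resistant leaves. On Ta.7388.2.S1_a_at its signal was 416, 287 and 405 at 24 h and 2.49, 15.7 and 8.1 at 0 h in resistant leaves, against 2.4, 1.06 and 11.6 at 24 h and 2.9, 1.84 and 11.9 at 0 h in susceptible leaves. The resistant 24 h arrays were far above the other 9, which overlapped. The difference was 4.02 ± 0.66 (SE, limma adjusted p = 0.00183) on this probe set and 4.13 ± 0.69 (SE, limma adjusted p = 0.00214) on Ta.7388.2.S1_x_at. Both probe sets passed the signal filter through infested resistant arrays, the ones where they were high, so being tested at all depended on this pattern. Both calls were kept in the setting without a filter. The third probe set of the gene, Ta.7388.1.S1_at, had a difference of 2.85 and did not pass (adjusted p = 0.054). LOC100049032 showed the same pattern at higher signals, with 4141, 2955 and 3137 at 24 h and 733, 725 and 434 at 0 h in resistant leaves, against 672, 518 and 498 at 24 h and 761, 425 and 450.4 at 0 h in susceptible leaves. Its difference was 2.35 ± 0.36 (SE, limma adjusted p = 0.000842), and its resistant 24 h arrays were all above the other 9.

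TaAffx.64818.1.S1_at, without a gene, read 446, 411 and 586 at 24 h and 5.26, 21.6 and 135 at 0 h in resistant leaves, against 24.5, 12.5 and 30.6 at 24 h and 115, 47 and 7.2 at 0 h in susceptible leaves, and its difference of 3.93 ± 0.85 (SE, limma adjusted p = 0.0184) was lost in 6 of 24 settings. TaAffx.57940.2.S1_at had 190.5, 227 and 99.2 at 24 h and 99.1, 20.6 and 12.7 at 0 h in resistant leaves, against 28.9, 22.8 and 26.2 at 24 h and 239, 144 and 109 at 0 h in susceptible leaves. It rose in resistant and fell in susceptible leaves, with log2 changes of 1.86 in resistant and -2.04 in susceptible leaves, but its 0 h arrays already stood apart the other way round, lower in resistant leaves. Its line difference at 48 h was 0.10 and not called (limma adjusted p = 0.946). Other tested probe sets of the same ID cluster, TaAffx.57940.1.S1_at and TaAffx.57940.1.S1_x_at, had differences of 0.11 and 0.09 that were not called (limma adjusted p = 0.978 and 0.977).

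Smaller differences came from genes of moderate change. Hmgb3 (LOC543333), which encodes a high mobility group box protein that binds and bends DNA in chromatin, had 7991, 6572 and 7585 at 24 h and 4859, 5132 and 4598 at 0 h in resistant leaves, against 5537, 4418 and 5057 at 24 h and 4481, 5385 and 5117 at 0 h in susceptible leaves. It rose by 0.60 in resistant leaves (limma adjusted p = 0.000102) and was 0.00093 in susceptible leaves, with a difference of 0.60 ± 0.14 (SE, limma adjusted p = 0.0393). This call was lost in 15 of 24 settings, and the gene's other tested probe set had a difference of 0.65 that was not called (limma adjusted p = 0.0706). LOC100037599 had a difference of 0.996 ± 0.22 (SE, limma adjusted p = 0.0214), lost in 7 settings, and LOC778392 one of 0.82 ± 0.20 (SE, limma adjusted p = 0.0428), lost in 16. Of its other 2 probe sets, Ta.351.2.S1_x_at had 0.91 and Ta.351.3.S1_at had the opposite sign at -1.07, neither called. LOC100037599 and LOC778392 rose, on the called probe sets, by 0.79 and 0.67 in resistant leaves, and their changes of -0.21 and -0.15 in susceptible leaves were not called. The other tested probe set of LOC100037599 had a difference of 0.88 that was not called (limma adjusted p = 0.182).

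LOC543069 and LOC542862 fell in both lines and further in susceptible leaves. The LOC543069 changes on Ta.22964.1.S1_x_at were -1.22 in resistant and -2.41 in susceptible leaves, with a difference of 1.19 ± 0.22 (SE, limma adjusted p = 0.00612). Its second probe set had a difference of 0.77, lost in 16 settings. LOC542862 changed by -1.29 in resistant and -2.10 in susceptible leaves, with a difference of 0.81 ± 0.19 (SE, limma adjusted p = 0.0282), lost in 12 settings. Its other tested probe sets had differences of 0.50 and 0.84 that were not called. LOC543254 fell in susceptible leaves by 1.21, with a difference of 0.85 ± 0.21 (SE, limma adjusted p = 0.0424), lost in 14. Its other tested probe set had a difference of 0.31 that was not called.

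**Figure D3:**
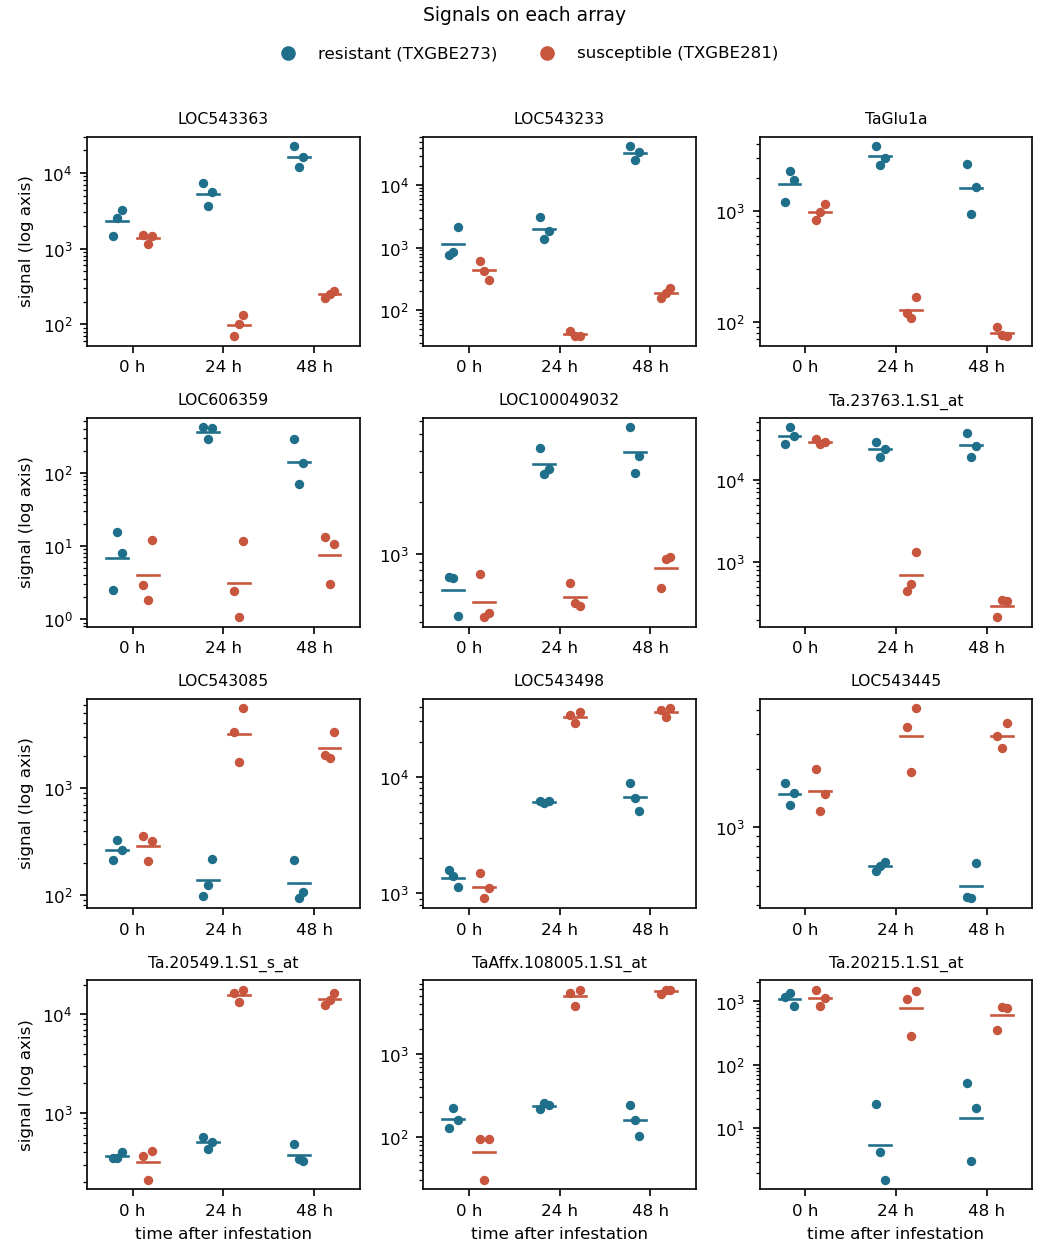
Signals on a log axis at 0 h, 24 h and 48 h for 8 annotated genes and 4 probe sets without a gene. Each point is 1 array, the short line is the geometric mean of the 3, and the resistant line stands left of the susceptible line at each time. In all 12 panels the 24 h arrays of the lines do not overlap, which follows from their choice among called probe sets (20.3% of all tested do not). The 48 h arrays do not overlap in these panels either. Of all tested probe sets, 16.4% had every resistant 48 h array higher and 13.4% every one lower. Named probe sets outside the figure include some that overlap at 48 h, such as Ta.22964.1.S1_x_at and TaAffx.57940.2.S1_at.

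The opposite pattern, a rise in susceptible leaves that was smaller or missing in resistant leaves, was more common. LOC543085 had the lowest difference among annotated genes with 16 added to the signal. Its signal was 99.1, 123 and 217 at 24 h and 215, 326 and 266 at 0 h in resistant leaves, against 3323, 1737 and 5522 at 24 h and 359, 209 and 317 at 0 h in susceptible leaves. The 3 susceptible 24 h arrays exceeded the other 9, and replicate 2 was the lowest of them. It rose by 3.39 in susceptible leaves, its change of -0.86 in resistant leaves was not called, and the difference was -4.25 ± 0.52 (SE, limma adjusted p = 8.16e-05).

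LOC542774 had 39.8, 41 and 41.8 at 24 h and 54.3, 156 and 119 at 0 h in resistant leaves, against 469, 161 and 611 at 24 h and 67.4, 119 and 42.2 at 0 h in susceptible leaves, with a difference of -3.17 ± 0.58 (SE, limma adjusted p = 0.00458). LOC100037659 changed by 0.52 in resistant and 2.81 in susceptible leaves, the resistant change not called, with a difference of -2.29 ± 0.36 (SE, limma adjusted p = 0.00129) on TaAffx.86552.1.S1_x_at. Its other 2 tested probe sets had differences of -0.77 and -1.03 that were not called. LOC543399 was dim, with 9.56, 40.6 and 10.1 at 24 h and 9.48, 8.96 and 64.8 at 0 h in resistant leaves, against 210.3, 81.6 and 274 at 24 h and 9.53, 11.2 and 11.2 at 0 h in susceptible leaves, and its difference of -2.95 ± 0.67 (SE, limma adjusted p = 0.0273) was lost in 11 of 24 settings. Its other tested probe set, Ta.5174.1.S1_at, changed by -1.64 in resistant and -0.94 in susceptible leaves, with a difference of -0.70 that was not called (adjusted p = 0.694).

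Probe sets without a gene reached larger differences of this kind. Ta.20549.1.S1_s_at had 574, 437 and 514 at 24 h and 354, 353 and 402 at 0 h in resistant leaves, against 16529, 13346 and 17873 at 24 h and 370.4, 212 and 411 at 0 h in susceptible leaves. The susceptible 24 h arrays lay above all others by a wide margin, and the difference was -5.12 ± 0.28 (SE, limma adjusted p = 6.34e-09). TaAffx.108005.1.S1_at had a difference of -5.42 ± 0.42 (SE, limma adjusted p = 6.42e-07), with 215, 257 and 241 at 24 h and 129.9, 222 and 159 at 0 h in resistant leaves, against 5391, 3788 and 5887 at 24 h and 94.4, 30.7 and 95.6 at 0 h in susceptible leaves. It was the largest of all tested probe sets with 16 added to the signal, Ta.20215.1.S1_at was with 1 added (-6.74) and Ta.20549.1.S1_s_at with 64 added (-4.97). Its 0 h arrays also did not overlap, but in the other order, higher in resistant leaves. TaAffx.71225.1.A1_at and TaAffx.122333.1.S1_at rose by 4.79 and 4.30 in susceptible leaves, with differences of -4.76 ± 0.57 (SE, limma adjusted p = 7.21e-05) and -4.92 ± 0.84 (SE, limma adjusted p = 0.00243). Among the called probe sets, and by bounds set after the values were seen, 32 rose over 8-fold in susceptible leaves while staying within 2-fold in resistant leaves. The reverse, a rise over 8-fold in resistant leaves alone, was found for 11 of the called probe sets, and falls of that size for 6 in susceptible and 3 in resistant leaves. These patterns were not counted over all tested probe sets, and the called ones were chosen by this same difference.

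A further group of genes rose in both lines, and more in the susceptible one. LOC543498 was the brightest, with 6251, 5957 and 6205 at 24 h and 1571, 1416 and 1138 at 0 h in resistant leaves, against 34024, 29077 and 36165 at 24 h and 1484, 903 and 1108 at 0 h in susceptible leaves. The groups did not overlap at 24 h, and the 0 h arrays did. Its log2 changes were 2.16 in resistant and 4.83 in susceptible leaves, with a difference of -2.68 ± 0.25 (SE, limma adjusted p = 4.05e-06). The gene's other tested probe set, TaAffx.128418.103.A1_at, had the opposite sign, 0.96, and was not called (adjusted p = 0.608). LOC543438 changed by 2.18 in resistant and 5.10 in susceptible leaves, with a difference of -2.92 ± 0.42 (SE, limma adjusted p = 0.000456), and its resistant 0 h arrays lay above the susceptible ones. LOC543150 changed by 2.57 in resistant and 4.60 in susceptible leaves (difference -2.04 ± 0.31 (SE, limma adjusted p = 0.000904)). A second probe set of each of these genes, with -0.41 for LOC543438 and -0.23 for LOC543150, was not called.

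LOC606366 and LOC543101 followed, with differences of -2.38 ± 0.43 (SE, limma adjusted p = 0.00427) and -1.42 ± 0.20 (SE, limma adjusted p = 0.000447). LOC606366 has 3 further tested probe sets, whose differences of -1.23, -0.30 and -0.13 were not called. The differences of LOC543196, -2.57 ± 0.64 (SE, limma adjusted p = 0.0483), and LOC542830, -2.10 ± 0.49 (SE, limma adjusted p = 0.0319), were lost in 16 and 11 of 24 settings. On both genes susceptible 24 h replicate 2 was well under its group: LOC543196 had 3857, 1163 and 4729 in susceptible 24 h leaves, and LOC542830 had 6493, 2168 and 6458. The other tested probe set of LOC542830 had a difference of -1.26 that was not called (limma adjusted p = 0.069). Ta.28782.1.S1_x_at, without a gene, changed by 1.20 in resistant and 5.88 in susceptible leaves, with a difference of -4.68 ± 0.45 (SE, limma adjusted p = 5.84e-06).

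Some genes turned down in resistant and up in susceptible leaves. LOC543445 had 599, 635 and 659 at 24 h and 1679, 1305 and 1498 at 0 h in resistant leaves, against 3253, 1911 and 4066 at 24 h and 1993, 1215 and 1478 at 0 h in susceptible leaves. Resistant 24 h arrays were the lowest of all 12, and the 0 h arrays of the lines overlapped. It fell by 1.22 in resistant and rose by 0.93 in susceptible leaves, with a difference of -2.15 ± 0.32 (SE, limma adjusted p = 0.000631). LOC542794 fell by 1.05 in resistant and rose by 0.56 in susceptible leaves, with a difference of -1.61 ± 0.29 (SE, limma adjusted p = 0.00402). LOC542993 had differences of -2.39 ± 0.33 (SE, limma adjusted p = 0.000271) and -1.28 ± 0.21 (SE, limma adjusted p = 0.00212) on separate probe sets. The first fell in resistant and rose in susceptible leaves, and the second rose in susceptible leaves alone. Another probe set of LOC542993, Ta.28219.2.S1_at, had a difference of -0.89 that was not called (limma adjusted p = 0.358).

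Ta.20215.1.S1_at, which has no gene, fell in resistant leaves. Its signal was 24.7, 4.31 and 1.56 at 24 h and 1157, 1342 and 847 at 0 h in resistant leaves, against 1112, 291 and 1471 at 24 h and 1541, 848 and 1134 at 0 h in susceptible leaves. The resistant 24 h arrays were near the floor, the other 9 were not, and the difference was -4.98 ± 0.72 (SE, limma adjusted p = 0.000535), of a size that varied with the offset (-6.74 with 1 added to the signal). LOC542999 fell in resistant leaves by 0.90, with a difference of -1.43 ± 0.32 (SE, limma adjusted p = 0.0252) that was lost in 11 of 24 settings. Its other tested probe set had a difference of -1.33 that was not called (limma adjusted p = 0.0627). The 14 called genes not named so far had 16 called probe sets, all lower, with differences between -1.41 and -0.53. On 11 of these probe sets susceptible leaves rose, and on 5 resistant leaves fell. Some of these genes had other tested probe sets, none of them called. Those of LOC543105 (1.05), LOC542778 (0.81) and LOC543002 (0.03) had the opposite sign. That of LOC542793 (-0.64) had the same sign, and those of LOC542992 went both ways (0.14 and -0.66).

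Few probe sets had a called line difference before infestation. At 0 h the line difference was called for 10 of all tested probe sets (0.0216%), and 3 of these were among the 738. The absolute line difference at 0 h had a median of 0.16 in the 738 against 0.20 over all tested probe sets, and the 0 h arrays of the lines did not overlap in 139 of the 738 (18.8%), against 10.5% of all tested. The 0 h arrays enter both these values and the line by infestation difference. In 702 of the 738 (95.1%) the lines were farther apart at 24 h than at 0 h, against 56.3% of all tested, and at 24 h the line difference was called for 696, against 2382 (5.15%) over all tested. These counts follow from the choice of the 738, since the line by infestation difference is the 24 h line difference minus that at 0 h. The 3 called at 0 h, singled out after their values were seen, were TaAffx.11885.1.S1_at, Ta.24421.1.A1_x_at and TaAffx.97844.1.S1_at. TaAffx.97844.1.S1_at had 125, 71.1 and 48.1 at 24 h and 179, 139.9 and 147 at 0 h in resistant leaves, against 105, 75.6 and 118 at 24 h and 28.9, 21.5 and 15.2 at 0 h in susceptible leaves, and its lines were apart at 0 h and overlapped at 24 h. TaAffx.11885.1.S1_at had a line difference of -1.93 at 0 h and a line by infestation difference of 2.18 ± 0.36 (SE, limma adjusted p = 0.00164), and Ta.24421.1.A1_x_at had 0.78 and -1.05 ± 0.17 (SE, limma adjusted p = 0.00128).

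The signals of the 48 h arrays do not enter the first-day difference itself, and there most of the 738 again differed between the lines. The 48 h arrays did enter the filter and the spread behind the 24 h calls, so the calls at 24 h and 48 h are not independent. With the 12 arrays alone 624 probe sets were called at 24 h, 565 of them among the 738. The resistant minus susceptible difference at 48 h was called in the direction of the 24 h difference for 651 of the 738 (88.2%). Over all tested probe sets the 48 h line difference was called for 12.1% (6.68% higher and 5.39% lower in resistant leaves), and for 10.9% it was called with the sign of that probe set's own 24 h difference. The resistant 48 h arrays lay wholly to that side of the susceptible 48 h arrays in 686 (93.0%), where 16.4% of all tested probe sets had every resistant array higher and 13.4% every resistant array lower. The median line difference at 48 h was 1.59 for the 290 higher and -1.48 for the 448 lower probe sets, against 0.03 over all tested. Of the 43 probe sets named above by size of difference, 40 had a called 48 h difference of the same direction.

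**Figure D4:**
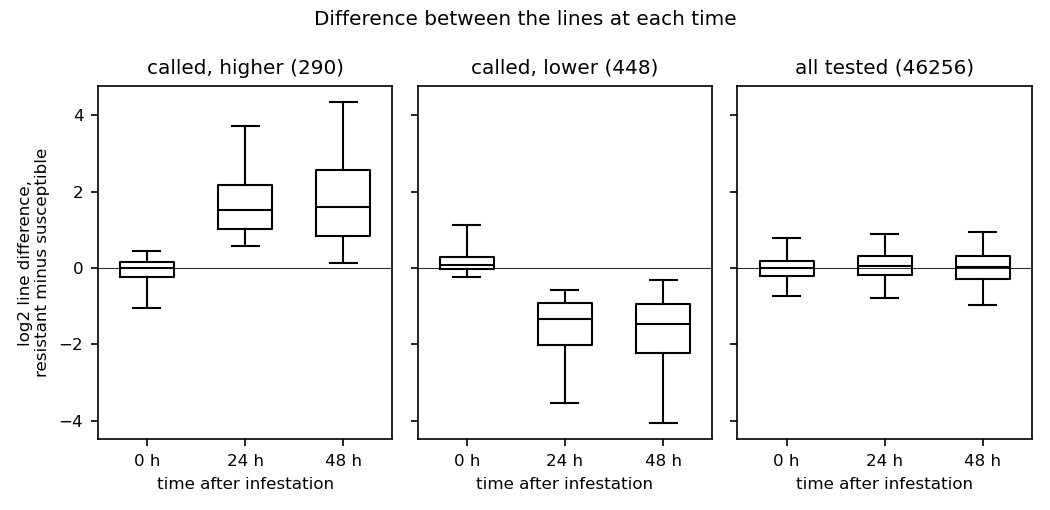
Boxes show the resistant minus susceptible log2 difference at 0 h, 24 h and 48 h for the called probe sets with a higher (290) and a lower (448) first-day change in the resistant line, and for all 46256 tested. Boxes span the quartiles with the median as a line, and whiskers run from the 5th to the 95th percentile. The called sets centre near 0 at 0 h, with medians of 0.01 and 0.08, and at 48 h lie about as far apart as at 24 h, when the choice was made.

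Of the 43, 27 had a larger absolute line difference at 48 h than at 24 h, where 57.6% of all tested probe sets did. LOC543233 on Ta.21348.1.S1_s_at had 42317, 25369.7 and 34764 in resistant and 154, 190.0 and 224 in susceptible 48 h leaves, a line difference of 7.36 (limma adjusted p = 1.45e-11), with 5.14 at 24 h. Its neighbour LOC543234 had 13485, 4015 and 7652 in resistant and 61.4, 62.8 and 129 in susceptible leaves, a difference of 6.28, with 3.90 at 24 h. For TaGlu1a the values were 2628, 937 and 1659 in resistant and 90.5, 75.6 and 74.2 in susceptible leaves, a difference of 4.08, with 4.43 at 24 h. LOC606359 had 289.7, 71 and 137 in resistant and 13.1, 2.98 and 10.6 in susceptible leaves on Ta.7388.2.S1_a_at, a difference of 2.70, with 4.21 at 24 h. The difference of LOC543085 was -4.36 at 24 h and -4.02 at 48 h, and that of Ta.20549.1.S1_s_at -4.92 at 24 h and -5.17 at 48 h.

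For 86 of the 738 the 48 h line difference was not called, and for 1 it was called the other way. Those 86 were dimmer, with a median highest group mean of 476 against 3183 for the 651. Turned to the direction of the 24 h difference, their line difference at 0 h had a median of -0.57 and was negative in 80. In the 651 that median was -0.02, with 359 negative. Where it was negative, part of the first-day difference was a line difference at 0 h of the opposite sign. The 0 h arrays enter the difference by which the 738 were chosen, so that choice favours such values. Hmgb3, also among the 86, had a line difference near 0 at 0 h (-0.04) and one of 0.16 at 48 h (limma adjusted p = 0.387). Its 48 h signals were 7779, 8803 and 8793 in resistant and 7710, 7667 and 7261 in susceptible leaves, above the 0 h signals of both lines. The exception, TaAffx.110529.1.S1_at, singled out after its values were seen, had 17.6, 8.18 and 12.6 at 24 h and 101, 48.6 and 82.1 at 0 h in resistant leaves, against 57.5, 36.9 and 30.8 at 24 h and 6.08, 21.8 and 14.1 at 0 h in susceptible leaves. At 48 h it had 55.3, 103 and 69.8 in resistant and 9, 8.66 and 4.59 in susceptible leaves, higher in the resistant line as at 0 h.

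Few probe sets of the pathway lists were called, as were few of all tested (1.6%), and few such genes carry a symbol on this array. At that share, lists of 3 to 25 probe sets would mostly hold no call, so a list without one says little about its pathway. The tryptophan and benzoxazinoid list had 3 tested probe sets, 1 higher (TaGlu1a) and none lower, with a median difference of 0.08 against 0.06 over all tested. The chromatin list had 10, with Hmgb3 higher and none lower (median 0.03). None was called of the 3 pathogenesis-related, 5 xylanase and protease inhibitor, 13 redox and detoxification, 6 light reaction, 25 carbon fixation and triose phosphate, 5 sugar, fructan and starch, 4 methyl transfer and lignin, or 10 tubulin probe sets. Likewise none was called of 8 translation, 4 ubiquitin and protein folding, 7 cold, drought and abscisic acid, 4 gibberellin and 3 resistance protein probe sets. The lists were matched by letters, and the light reaction list took in ATP-PFK, by its name a phosphofructokinase gene, in this way. At an unadjusted p under 0.05, which 11.9% of all tested probe sets had, stood 14 of the 97 entries of these 13 lists (14.4%). The calcium, kinase and transcription factor list and the nitrogen and senescence list had no tested probe set.

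Within these lists the largest differences are given as values. The catalase gene CAT1 had a difference of -1.56 ± 0.63 (SE, limma adjusted p = 0.307), on a probe set that changed by -2.34 in resistant and -0.78 in susceptible leaves. The abscisic acid responsive gene Rab15 had -1.72 (limma adjusted p = 0.333), and GA20ox1a, a gibberellin biosynthesis gene, -1.75 (adjusted p = 0.173). An rbcL probe set of low signal had 2.25 (adjusted p = 0.216). The probe sets of CAT1, GA20ox1a and rbcL were dim, with highest group means of 198, 168 and 146, against a median of 254 over all tested. The fructan exohydrolase gene 1-FEH had -0.51 (adjusted p = 0.113), the ribosomal protein gene RPS29 1.17 (adjusted p = 0.0981) and Glc1, of the pathogenesis-related list, -0.63 (adjusted p = 0.313).

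In the other lists, the β-tubulin gene Tubb5 had -1.15, the serpin gene WSZ2a -1.28, SAHH, of the methyl cycle, -0.57, the ubiquitin-conjugating enzyme gene UBC1 -0.61 and petC, of the cytochrome b6f complex, 0.94, with limma adjusted p between 0.277 and 0.672. The resistance protein list matched only by the letters of other genes, and its largest value was that of the LEA gene PMA2005, -1.20. The probe sets of WSZ2a, petC and PMA2005 were dim as well, with highest group means of 111, 77 and 53.

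Apart from TaGlu1a, no marker of a tissue was called in the first-day difference, where 1.6% of all tested probe sets were. Of 24 leaf mesophyll probe sets none was called, and their summed signal was 214118 to 252504 at 24 h and 405362 to 476094 at 0 h in resistant leaves, against 181343 to 219159 at 24 h and 349023 to 393823 at 0 h in susceptible leaves. None of the 8 root or meristem probe sets was called, with summed signals of 730.0 to 886 in resistant 24 h and 960.0 to 1188 in resistant 0 h arrays, against 905 to 916 in susceptible 24 h and 1101 to 1327 in susceptible 0 h arrays. The grain endosperm list had 9, of which 1 was called, and that was TaGlu1a, matched by its letters. The other 8 summed to 399.9 to 564 in resistant 24 h and 387 to 584 in resistant 0 h arrays, against 401 to 793 in susceptible 24 h and 249 to 648 in susceptible 0 h arrays. At 48 h, where the lines were compared on separate arrays, those 8 summed to 409.8 to 1172 in resistant and 2338 to 5243 in susceptible arrays, with 2 of 8 called lower in the resistant line. The part of this in the 48 h line differences was not tested. The vascular list had no tested probe set.

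Probe sets of one gene did not always give the same call. Of the 41 genes, 19 had a single tested probe set and 22 had several. All probe sets were called in 2 of these 22, and in the other 20 some were not, with every probe set of the same sign in 14. Of the 43 probe sets named by size of difference, 30 were called in all alternative settings, 1 lost its call in a single setting and 12 lost it in 6 to 16. None changed sign in any setting, and the 24 h arrays of the lines did not overlap in any of the 43, against 20.3% of all tested. That last count follows from the choice and supports nothing by itself.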

How the data were processed

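Leaf RNA of 18 samples was measured on 1-colour Affymetrix wheat arrays. The deposited values are probe set intensities on a linear scale, made with MAS5 (version not stated), per the submitters' processing notes. The trimmed mean of every array was 500.1, so the arrays had been scaled to a common level before deposit. Detection calls were not used here. From the deposited intensities log2(signal + 16) was computed without further normalization, and tests were run on probe sets that exceeded the 40th percentile of the array on 3 or more arrays. A probe set could thus pass through the arrays of a single group. This left out 111 control probe sets and 14923 low ones. The 19 tested probe sets with RPTR IDs, none of which was called, were kept. limma 3.58.1 (R 4.3.3) fitted 1 model with 6 group means (moderated variance with a trend on mean signal), and p-values were adjusted by Benjamini-Hochberg over all 46256 tested probe sets. The steps were tested on simulated data.

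Symbols are those of an old platform annotation: 1273 probe sets had 1 symbol, 0 several and 60017 none, and 770 of the 771 genes were found in RefSeq's annotation (IWGSC CS RefSeq v2.1). Probe sequences and the study's assembly were not used here, so no sequence or position is printed. The comparison, gene lists and naming rule were chosen with earlier results of these data known. Named were the 15 called annotated genes with the largest difference in each direction (12 were higher), the 6 largest without a gene, and for each list the called members or else the member with the largest difference. The lists were matched by the letters of symbols and synonyms.

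No arrays were identical, and replicates correlated at 0.936 to 0.963. Replicate numbers were checked as pairs and not used as such. Alternatives were other offsets, normalizations, filters and variance models, the 12 arrays alone, a block for the replicate number, and leaving out each of the 12 arrays in turn.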

Additional observations from a re-analysis of the deposited data

Results flagged for a closer look

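The lines' first-day changes differed by the test of the difference itself in 738 probe sets, and for that reason each of the following is listed with its line by infestation difference (log2, resistant change minus susceptible change). The annotated genes with a larger rise or smaller fall in the resistant line were LOC543363 at 4.82, LOC543233 at 4.32, LOC606359 at 4.13, LOC606359 at 4.02, LOC543233 at 3.79, TaGlu1a at 3.61, LOC543234 at 2.83, LOC100049032 at 2.35, LOC543069 at 1.19, LOC100037599 at 0.996, LOC543254 at 0.85, LOC778392 at 0.82, LOC542862 at 0.81, LOC543069 at 0.77 and Hmgb3 at 0.60, where a gene listed again has a second probe set. The annotated genes with the lower change in the resistant line were LOC543085 at -4.25, LOC542774 at -3.17, LOC543399 at -2.95, LOC543438 at -2.92, LOC543498 at -2.68, LOC543196 at -2.57, LOC542993 at -2.39, LOC606366 at -2.38, LOC100037659 at -2.29, LOC543445 at -2.15, LOC542830 at -2.10, LOC543150 at -2.04, LOC542794 at -1.61, LOC542999 at -1.43, LOC543101 at -1.42 and LOC542993 at -1.28. Among probe sets without a gene, the higher ones were Ta.23763.1.S1_at at 4.80, TaAffx.90316.1.S1_at at 4.70, Ta.30827.1.A1_x_at at 4.64, TaAffx.1074.1.S1_at at 4.38, TaAffx.64818.1.S1_at at 3.93 and TaAffx.57940.2.S1_at at 3.90, and the lower ones were Ta.28782.1.S1_x_at at -4.68, TaAffx.71225.1.A1_at at -4.76, TaAffx.122333.1.S1_at at -4.92, Ta.20215.1.S1_at at -4.98, Ta.20549.1.S1_s_at at -5.12 and TaAffx.108005.1.S1_at at -5.42. Groups of 3 arrays are too small for a test of single outlying arrays.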

How the results depend on the processing

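Apart from TaAffx.61466.1.S1_at, which was not followed through them, every called probe set named in the report kept its direction in all settings in which it was tested, and 13 of the 43 named by size lost their call in at least 1 of up to 24 settings (1 in a single setting, 12 in 6 to 16). On the scale of the bacterial hybridisation controls 402 probe sets were called, 180 of them lower, with 45 in opposite directions, 167 in the same direction in both lines, 190 in 1 line alone and 346 called in the same direction at 48 h. Without the variance trend the numbers were 390 called, 162 higher, 228 lower, 111 in the same direction in both lines, 216 in 1 line alone and 333 at 48 h. With each of the 12 arrays left out in turn, 476 to 1304 were called, 197 to 494 higher, 259 to 810 lower, 59 to 109 in opposite directions, 165 to 592 in the same direction, 243 to 603 in 1 line alone and 438 to 1137 at 48 h. The number lower was 290 without susceptible 24 h replicate 1. The cause of these shifts was not tested. The other settings (offsets of 1 and 64, quantile normalization, median centring, no filter, a 60th percentile filter, robust variance, array weights and the 12 arrays alone) gave 624 to 976 calls, and the 12 arrays alone give no 48 h value. Median centring called 747. Samples of one number did not vary together over all tested probe sets (correlations of -0.03 to 0.033, none over 0.1). These values cannot show whether the samples were paired by design, and a fit with the replicate block called 842. Precision is limited by having 3 arrays in each group, and dim probe sets, near the floor of the array, are read with the least.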
